A study of Mus musculus with 4 samples.

Results

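The mRNA of wild-type mouse embryonic stem cells was compared between the JB1 line and the E14 line. E14 carries the strain label 129P2/OlaHsd and JB1 the strain label JF1/B6, and both libraries are labelled wild type. JF1 is an inbred strain derived from Japanese mice of the molossinus subspecies and stands genetically apart from the common laboratory strains. A gene was included when its level was at least 1 RPM (reads per 1000000 reads in the listed genes) in either library, which held for 13788 of the 26130 genes in the deposited tables and used 2 of the 4 libraries. The other 2 libraries came from Zfp57-/- cells of the same lines and served as a separate JB1 against E14 pair that shares no library with the wild-type pair. All cells were kept without feeder cells on gelatin in medium with fetal serum and leukemia inhibitory factor (LIF). The study asked what the loss of ZFP57, a zinc finger protein that protects methylated imprinting control regions, does to mRNA levels, and the wild-type libraries were its 2 starting points.

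Embryonic stem cells keep the identity of the early epiblast through a network of transcription factors around OCT4, SOX2 and NANOG, which LIF supports in serum through STAT3. Wild-type lines of different strains are known to differ in this network, in imprinting, in the number of chromosomes kept in culture and in silenced germline genes.

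Each line and genotype was 1 library, and the tables of the lines were scaled separately by the authors. No test between lines was therefore made for the wild-type pair, and no p-value is given. A difference is log2((JB1 RPM + 1)/(E14 RPM + 1)), which understates the difference of genes near 1 RPM, and a gene was called when it reached 2-fold on that scale. Fold values are plain RPM ratios with nothing added, each with a 95% exact conditional binomial interval on whole reads. Such an interval holds the error of counting alone. How much cultures or clones of a line vary is unknown here. Reads in listed genes came to 26801865 for the E14 library and 47458221 for the JB1 library, so 1 RPM stood for 26.8 and 47.5 reads. They made up 53.1% and 68.6% of the totals the authors had scaled by, and 53.7% and 68.9% in the knockout libraries of E14 and JB1. Taking 3 reads as the most that a count of 0 allows, a gene without reads could lie as high as 0.112 RPM in E14 and 0.0632 RPM in JB1. RPM is not corrected for gene length, so levels are compared between libraries and not between genes.

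In the wild-type pair, 1782 genes (12.9% of those measured) lay at least 2-fold higher in JB1 and 873 (6.33%) at least 2-fold lower, 19.3% in all. Over the 13788 genes the differences had a median of 0.16 on the log2 scale, and 59.6% of genes lay above 0. The middle 50% of genes lay between −0.29 and 0.64. At 4-fold, 274 genes were higher and 182 lower, and at 8-fold 41 were higher and 68 lower. The share of the called genes that was higher, 67.1%, depended on the scaling. It was 86.9% with the authors' scaling to the library total, which moved the median of all genes to 0.49, and 58.2% with a median of ratios. It was 52.2% when differences were centred within deciles of transcript GC content. Just inside the limit of 1 RPM lay Gm8251, at 1.01 RPM in E14 and 0 in JB1. Just outside lay Neurl3, at 0.634 RPM in E14 and 0.990 in JB1.

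**Figure D1:**
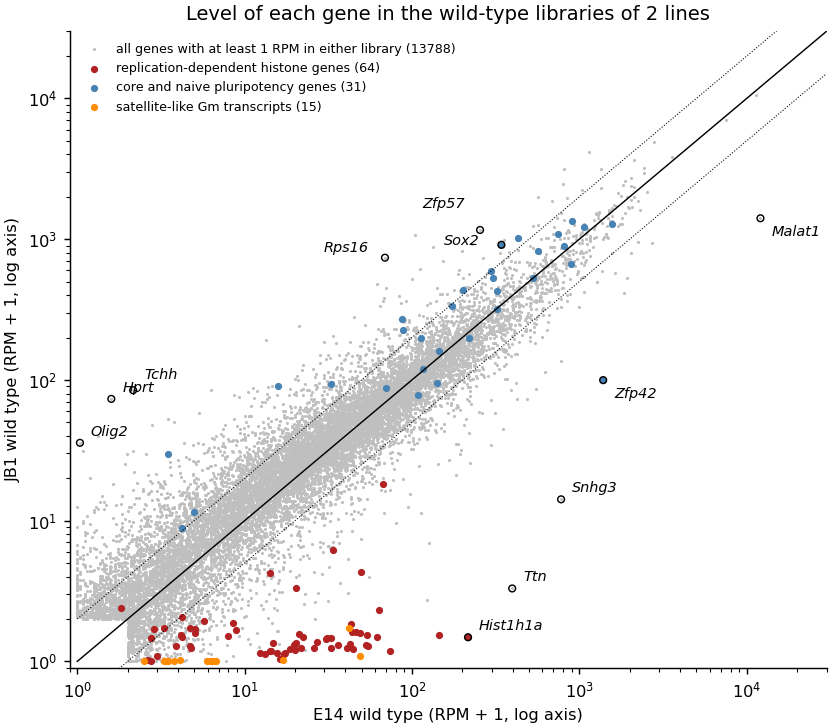
Level of each gene in E14 wild type (horizontal) and JB1 wild type (vertical), in RPM + 1 on log axes, 1 library per line, with the line of equal level and dotted lines at 2-fold. Histone genes lie along the bottom, at up to 215 RPM in E14, while most pluripotency genes lie on or above the line of equal level and Zfp42 lies far below it.

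Most of the called genes were called in the knockout pair too. Of the 1782 genes higher in JB1 wild type, 1192 (66.9%) were also at least 2-fold higher in the JB1 knockout than in the E14 knockout, where 14.7% of all genes were so called. They made up 57.2% of the 2085 genes higher there. Of the 873 lower genes, 591 (67.7%) were lower in the knockout pair, against 7.43% of all genes, and they made up 56.2% of the 1051 genes lower there. The sign was kept by 1721 of the higher genes and 845 of the lower genes. Differences called in both pairs rest on 2 libraries of each line, and those called in the wild-type pair alone rest on 1 library of each line.

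**Figure D2:**
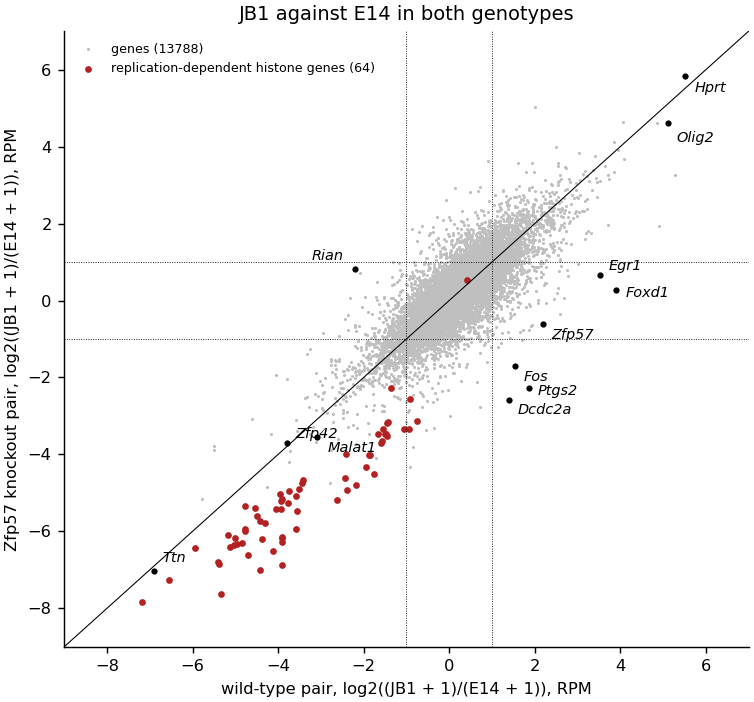
Difference between JB1 and E14 for each of the 13788 genes in the wild-type pair (horizontal) and in the Zfp57 knockout pair (vertical), both as log2((JB1 RPM + 1)/(E14 RPM + 1)), 1 library per line and genotype. Most genes follow the diagonal, the histone genes lie below it, and Foxd1, Egr1, Zfp57, Fos, Ptgs2 and Dcdc2a were past 2-fold higher in the wild-type pair but not in the knockout pair.

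The gene with the highest difference was Hprt (chromosome X, 50341314 to 50374836, plus strand, mm9), a purine salvage enzyme whose loss is selected with 6-thioguanine. Hprt stood at 0.597 and 0.50 RPM in the wild-type and knockout libraries of E14, against 72.3 and 85.1 RPM in the JB1 libraries. Hprt was thus 121-fold higher in JB1 wild type (95% interval 74.4 to 212), and both E14 libraries lay under 1 RPM. E14TG2a, a widely used E14 subline, is known as HPRT-deficient, but the labels name the line only as E14.

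Transcription factor genes of other lineages were among the highest. Olig2, an oligodendrocyte and motor neuron factor, had 1 read (0.0373 RPM) in the E14 library and 34.7 RPM in the JB1 library, a ratio of 931 with a counting interval of 167 to 36783. Its neighbour Olig1 stood at 0.187 and 19 RPM. Myod1, the muscle determination factor, had 0 reads in E14 and 11.5 RPM in JB1, at least 103-fold higher. Olig2 (0.0263 and 23.9 RPM), Olig1 (0 and 23.9 RPM) and Myod1 (0.0263 and 10.5 RPM) showed the same order in the knockout pair.

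Foxd1, a forkhead factor of kidney stroma, was at 0.970 and 28.6 RPM, 29.5-fold higher in JB1, but at 1.42 and 1.91 RPM in the knockout pair. Among the 15 highest genes, Foxd1 alone was not at least 2-fold higher in the knockout pair. Tchh, encoding the hair follicle protein trichohyalin, stood at 1.16 and 83.4 RPM. Btn1a1, encoding a milk fat globule protein, stood at 0.336 and 38.9 RPM, and at 0.922 and 6.31 RPM in the knockout pair. Kdm6b, encoding a demethylase of histone H3 lysine 27, stood at 5.30 and 83.6 RPM, 15.8-fold higher. The 15 highest genes also held Miip, Cited4, H1fx, Kdm5d and 3 predicted or unnamed genes (Gm15698, 9030425E11Rik and Gm949).

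At the low end, 11 of the 15 lowest genes were histone genes. The other 4 were Ttn, Snhg3, Gm10800 and Kbtbd11. Ttn, the gene of the giant muscle protein titin, was at 396 and 2.30 RPM, 172-fold lower in JB1 (95% interval 143 to 210), and at 757 and 4.74 RPM in the knockout pair. Kbtbd11 stood at 123 RPM in E14 and 1.75 RPM in JB1, 70.2-fold lower, and at 79.6 and 4.89 RPM in the knockout pair. Prex2, encoding a Rac exchange factor, stood at 125 and 5.96 RPM. Ttn overlaps a listed gene on the other strand, and the strand setting of the counting is not given in the sources used here, so its reads cannot be told apart from those of that partner.

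Replication-dependent histone genes formed the group with the lowest median. These genes make the bulk of histone protein in S phase, and their mRNAs end in a conserved stem-loop in place of a poly(A) tail. A library made from poly(A)-selected RNA is not designed to capture them. The stem-loop is shown here because it is the sequence this group of mRNAs is known for, with the paired stems in capitals and the loop in lower case, 5′ to 3′, read from GENCODE M21 transcripts of GRCm38.
Hist1h2bf: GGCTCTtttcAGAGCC
Hist1h2bb: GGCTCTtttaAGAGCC
Hist1h4f: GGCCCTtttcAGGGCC
Hist1h4b: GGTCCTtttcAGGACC
The histone stem-loop was searched as 16 letters on the transcript strand in the last 200 bases, with GGNNCT and AGNNCC as the stems of 6 bases and TTTN as the loop of 4 bases, and without requiring that the stems pair. It was found in 25 of the 64 measured histone genes and in 0.206% of all matched genes. The first form above was carried by 16 histone genes. Outside the histone genes it was found in Mafg, Ankrd17 and Rab12. For the other 39 histone genes these letters are not in that window of the annotated transcripts.

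Of the 64 measured histone genes, 60 were at least 2-fold lower in JB1 and 0 were higher, against 6.33% and 12.9% of all genes. Their median difference was −3.83, and 1 of 64 lay above 0. The median was −3.90 for the 25 genes with the stem-loop pattern and −3.76 for the 39 without. Summed over the 67 histone genes in the tables, E14 wild type had 1761 RPM and JB1 wild type 57.8 RPM, 30.5-fold lower. It was 4654 RPM in the E14 knockout and 40.7 RPM in the JB1 knockout. The sum was thus higher in E14 than in JB1 in both genotypes. Keeping the order in both pairs was common, as 845 of the 873 genes lower in JB1 wild type did so.

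Hist1h1a, a linker histone gene (chromosome 13, 23855537 to 23856283, plus strand, mm9), stood at 215 RPM in the E14 wild type and 0.485 RPM in the JB1 wild type, which is 444-fold lower (95% interval 295 to 700.5). The knockout pair had Hist1h1a at 293 and 0.284 RPM. Hist1h2bf stood at 43.5 and 0.232 RPM, Hist1h2bb at 53.8 and 0.295 RPM, and Hist1h4f at 24.8 and 0.253 RPM in the wild-type pair. The 4 measured members that were not called lower were Hist2h2be, Hist1h2an, Hist1h2ah and Hist1h2ad, with differences of 0.41, −0.91, −0.76 and −0.95. Histone genes of 1 class are near copies of each other, and how the authors treated reads that map to several places is not given in the sources used here, so levels of single members are less certain than the sum.

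Histone genes whose mRNAs carry a poly(A) tail did not share this difference. The 10 polyadenylated variants, a list chosen after seeing the data, summed to 3060 RPM in E14 and 3000 RPM in JB1. Of these, 1 member (10%) was higher and 0 lower, against 12.9% and 6.33% of all genes, with a median of 0.07. The higher member was H1fx, a linker histone variant, at 0.933 and 24.2 RPM. Of 18 genes of histone pre-mRNA 3′ processing, 0 were called in either direction and the median was −0.01. Of 35 cell cycle genes, 2 (5.71%) were higher and 3 (8.57%) lower, against 12.9% and 6.33% of all genes. Their median was −0.31, which lay 0.47 below that of all genes, and with the authors' scaling it was 0.02, which lay 0.46 below. The lower ones were Mki67, Top2a and Ccnb1, which mark cells from S phase to mitosis. Top2a stood at 1372 and 590 RPM, 2.32-fold lower. Of the 35 genes, 15 lay above 0 and 20 below. The mitotic kinase genes lay on both sides. Plk1, Aurkb and Aurka had differences of 0.48, 0.29 and 0.25, and Cdk1 and Bub1 of −0.59 and −0.44. The part of the cell cycle in the histone difference was not tested.

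Many transcripts known to stay in the nucleus or to host small RNAs were lower in JB1 as well. In a list of nuclear RNAs and small RNA host transcripts, 11 of 18 (61.1%) were at least 2-fold lower and 1 (5.56%) was higher. The shares over all genes were 6.33% and 12.9%, and the list median was −1.69. This list was chosen after seeing the data, so its count follows in part from that choice. The list summed to 16488 RPM for E14 and 3471 RPM for JB1. Malat1, a nuclear speckle RNA, made up most of it, at 12078 and 1406 RPM, 8.59-fold lower, and at 8669 and 734 RPM in the knockout pair. Snhg3, a host of small nucleolar RNAs, stood at 777 and 13.2 RPM, 59.0-fold lower. Mir17hg, the host of the miR-17 cluster, stood at 165 and 25.9 RPM.

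Neat1 and Gas5, members of the same list, differed little, at 418 and 427 RPM for Neat1 and at 679 and 698 RPM for Gas5 in the wild-type pair. The lower levels thus did not extend to every RNA of this kind. Snhg3 overlaps a listed gene and shares the uncertainty over strand given for Ttn.

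Predicted genes that resemble satellite repeats were close to absent in JB1. All 15 satellite-like predicted genes, also chosen after seeing the data, were at least 2-fold lower, with a median of −2.65. Each passed the limit of 1 RPM through E14 alone, and 11 had 0 reads in JB1. The count therefore follows from the choice of the list and the limit. They summed to 152 and 0.864 RPM in the wild-type pair, and to 57.6 and 1.72 RPM in the knockout pair. Gm10800 stood at 47.8 and 0.0843 RPM in the wild-type pair. Gm10801 stood at 16 RPM and, with 1 read, at 0.0211 RPM, a ratio of 760 with a counting interval of 136 to 30073. Gm10718 had 5.75 RPM in E14 and 0 reads in JB1, at least 90.9-fold lower. These genes share repeat sequence and are not independent of each other.

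The summed levels of histone genes, nuclear RNAs and satellite-like transcripts were each higher in both E14 libraries than in both JB1 libraries. The nuclear and satellite-like lists were chosen after seeing the data. The share of reads in listed genes was lower in both E14 libraries (53.1% and 53.7%) than in both JB1 libraries (68.6% and 68.9%). In the wild-type and knockout libraries of E14 the histone sum was 1761 and 4654 RPM. There the nuclear RNA sum was 16487.7 and 13121.5 RPM and the satellite-like sum 152 and 57.6 RPM. The part of library preparation in these differences was not tested, and with 1 library per line and genotype it cannot be told apart from the line.

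The labelled cell type was checked against its markers. Pou5f1, the gene of OCT4, stood at 904 RPM in the E14 wild type and 1349 RPM in the JB1 wild type, and at 823 and 1364 RPM in the knockout pair. Sox2 stood at 341 and 911 RPM in the wild-type pair and at 286 and 570 RPM in the knockout pair. Nanog stood at 429 and 1010 RPM, and at 254 and 525 RPM in the knockout pair. All 3 were present in every library and higher in JB1, Sox2 by 2.67-fold, Nanog by 2.35-fold and Pou5f1 by 1.49-fold in the wild-type pair.

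Of 31 core and naive pluripotency genes, 23 lay above 0, 11 (35.5%) reached 2-fold higher in JB1 and 1 (3.23%) was lower. The shares over all genes were 12.9% and 6.33%. The list median was 0.54, against 0.16 for all genes, and 0.48 in the knockout pair. The higher genes included factors of the naive network that LIF and serum maintain. Klf2 stood at 86.9 and 225 RPM, Klf5 at 85.8 and 269 RPM, and Prdm14, a germ cell and naive state factor, at 31.9 and 92.5 RPM. Tbx3 stood at 201 and 435 RPM. In the knockout pair, Klf5 (98.5 and 202 RPM), Prdm14 (14.8 and 59.5 RPM) and Tbx3 (202 and 416 RPM) kept the order. Klf4 stood at 294 and 597 RPM in the wild-type pair but at 267 and 238 RPM in the knockout pair.

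The members that differed most were not of 1 direction. Zfp42, which encodes the naive marker REX1 (chromosome 8, 44380422 to 44392363, minus strand, mm9), stood at 1386 RPM in the E14 wild type and 98.6 RPM in the JB1 wild type, which is 14.1-fold lower (95% interval 13.6 to 14.5). In the knockout pair Zfp42 stood at 1092 and 82.9 RPM, so both E14 libraries lay far above both JB1 libraries. Dppa3, encoding the maternal factor STELLA, went the other way, at 2.46 and 28.7 RPM in the wild-type pair and 3.45 and 21.4 RPM in the knockout pair. Utf1 was at 14.9 and 89.6 RPM, and at 14.4 and 247 RPM in the knockout pair.

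**Figure D3:**
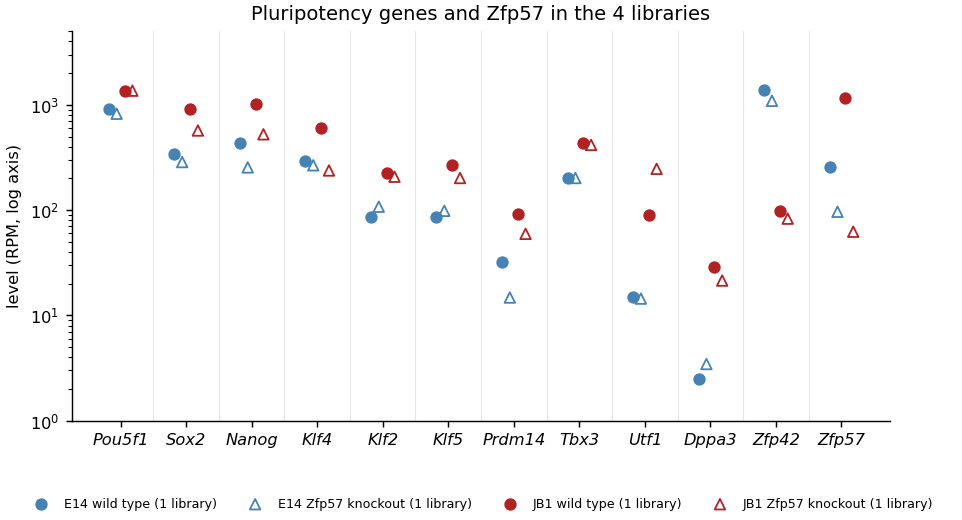
Level in RPM (log axis) of 11 pluripotency genes and Zfp57 in each of the 4 libraries, filled circles for wild type and open triangles for Zfp57 knockout, E14 in blue and JB1 in red. Every gene shown but Zfp42 was higher in JB1 wild type than in E14 wild type. Zfp42 stood at 1386 RPM in E14 and 98.6 RPM in JB1. The 11 genes are part of the list of 31, in which 8 genes lay below 0, Zfp42 among them.

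Among 16 primed epiblast genes, 3 (18.8%) were higher and 1 (6.25%) lower, against 12.9% and 6.33% of all genes. Their median of 0.17 lay beside 0.16 for all genes and changed side of it in 6 of 9 settings. Cdh2, the N-cadherin gene, stood at 3.43 and 27.5 RPM and Pou3f1, the gene of OCT6, at 1.72 and 9.84 RPM. Otx2, an epiblast factor, was the lower one, at 16.3 and 4.09 RPM, 3.98-fold lower. All 3 kept their direction in the knockout pair.

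Markers of other cell types were checked in both lines. Of 25 fibroblast or feeder genes, 16 were measured. Of these, 7 (43.8%) were higher and 1 (6.25%) lower, against 12.9% and 6.33% of all genes, and the list median was 0.77. That median was 0.35 with a pseudocount of 5 RPM, against 0.12 for all genes. Over the 21 members that had a read in either library it was 0.28, against 0.07 for all genes. The list summed to 1132 and 1395 RPM in E14 and JB1 wild type, most of it Fn1 at 1058 and 1288 RPM. Col1a1, which defines fibroblasts, stood at 0.261 and 5.35 RPM and passed the limit of 1 RPM only through JB1. Dcn, Lum, Twist2 and S100a4 had 0 reads in both lines, and Col3a1 and Postn had 0 reads in JB1. In bulk RNA, a different number of such cells and a different level per cell cannot be told apart, here and in the lists that follow.

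Of 20 primitive endoderm genes measured, 4 (20%) were higher and 3 (15%) lower, against 12.9% and 6.33% of all genes. The list median of 0.56 became 0.08 after centring by GC content. Lamc1, a laminin chain, stood at 686 and 1870 RPM in the wild-type pair but at 955 and 727 RPM in the knockout pair. Sox7 stood at 1.16 and 8.74 RPM and Dab2, an endocytic adaptor, at 5.41 and 29.5 RPM. Lrp2, the megalin receptor, was the lowest, at 295 and 33.3 RPM, 8.85-fold lower, and at 370 and 50.5 RPM in the knockout pair. The defining factors Gata4 (4.14 and 8.89 RPM) and Gata6 (2.57 and 1.83 RPM) were low in both lines and not called, and Afp had 0 reads in both.

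Of 12 neuroectoderm genes, 3 (25%) were higher, Olig2 and Nefm among them, and 5 (41.7%) lower (Pax6, Crabp2, Nes, Tubb3 and Dll1). The shares over all genes were 12.9% and 6.33%. Dll1, a Notch ligand, stood at 19.2 and 2.44 RPM and Nes, the nestin gene, at 12.5 and 3.35 RPM. The summed lists were 224 and 255 RPM for neuroectoderm, 36.5 and 57.5 RPM for mesoderm and 29.3 and 54.7 RPM for trophoblast. Neurog2 had 0 reads in both lines, as had the trophoblast genes Prl3d1, Prl2c2 and Tpbpa.

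Genes of the 2-cell-like state, a rare state with totipotent features that flares up in stem cell cultures, differed mainly in 1 family. Of 11 measured, 6 (54.5%) were at least 2-fold lower and 0 higher, against 6.33% and 12.9% of all genes. The list median was −1.17, and −1.03 in the knockout pair. The wild-type median was −0.46 with a pseudocount of 5 RPM and −0.44 over the 15 members that had a read in either library. The lower ones were 5 Zscan4 genes and Dub1a, while Sp110 and Zfp352 lay above 0, with differences of 0.32 and 0.57. Zscan4c, a telomere regulator and the marker of that state, stood at 11.8 and 1.35 RPM in the wild-type pair and at 16.7 and 3.66 RPM in the knockout pair. Zscan4f stood at 8.95 and 1.05 RPM. The Zscan4 genes are near copies of each other, so their values are not independent.

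**Figure D4:**
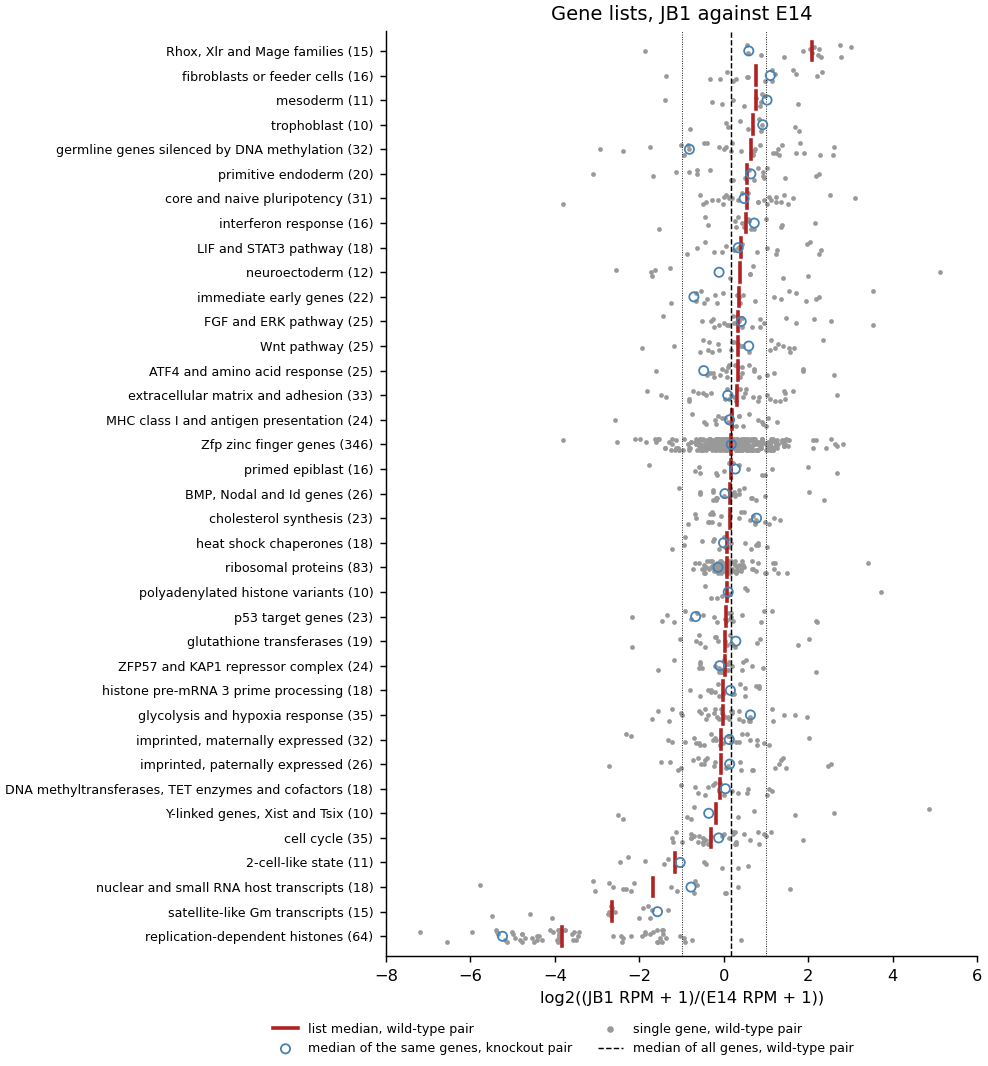
Difference between JB1 and E14 wild type, log2((JB1 RPM + 1)/(E14 RPM + 1)), for every measured gene of each list with at least 10 measured genes (grey points, number in brackets), with the list median in red, the median of the same genes in the knockout pair as an open blue circle, and the median of all genes dashed. Histone genes have the lowest median (−3.83) and the Rhox, Xlr and Mage families the highest (2.09).

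The Rhox, Xlr and Mage families, X-linked genes of the germline and placenta that DNA methylation keeps silent, had the highest list median. Of 15 measured, 11 (73.3%) reached 2-fold higher in JB1 and 1 (6.67%) lower, against 12.9% and 6.33% of all genes. The list median was 2.09 in the wild-type pair and 0.59 in the knockout pair. The wild-type median was 1.32 with a pseudocount of 5 RPM and 0.76 over the 25 members that had a read in either library. Members such as Xlr5c passed the limit of 1 RPM only through JB1. They summed to 87.9 and 285 RPM in the wild-type pair, against 209 and 254 RPM in the knockout pair. Xlr5c stood at 0.858 and 13.9 RPM and Xlr3a at 7.39 and 36.0 RPM. Xlr5c stood at 4.90 and 10.3 RPM in the knockout pair. Rhox13 was the lower member, at 12.1 and 2.55 RPM. Members of the Xlr family are near copies, so reads may be split among them.

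Of 32 germline genes known to be silenced by DNA methylation, 11 (34.4%) were higher and 4 (12.5%) lower. The shares over all genes were 12.9% and 6.33%, and the list median was 0.65. Dazl, a germ cell RNA-binding protein gene, stood at 19.9 and 99.6 RPM. Sycp1, of the synaptonemal complex, stood at 5.37 and 37.5 RPM, and Tdrd9, a piRNA pathway helicase gene, at 3.06 and 23.3 RPM. Sycp3, of the same complex as Sycp1, was 8.18-fold lower, at 93.4 and 11.4 RPM, and Stra8, the retinoic acid target of meiotic entry, stood at 20.2 and 3.08 RPM. Members of 1 pathway thus lay on both sides.

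Of 18 genes of DNA methyltransferases, TET enzymes and their cofactors, 3 (16.7%) were higher and 1 (5.56%) lower. The shares over all genes were 12.9% and 6.33%. Dnmt3b, a de novo methyltransferase gene, stood at 89.8 and 89.5 RPM, and Dnmt3a at 46.9 and 29.0 RPM, neither past 2-fold. Tet3 was the TET gene called, at 17.9 and 38.4 RPM.

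Zfp57 (chromosome 17, 37138108 to 37147580, plus strand, mm9) differed between the wild-type lines. It stood at 254 RPM in E14 and 1161 RPM in JB1, 4.57-fold higher (95% interval 4.46 to 4.69). In the knockout libraries it stood at 96.4 RPM in E14 and 62.3 RPM in JB1. Zfp57 was the 1 member (4.17%) called higher among 24 genes of the ZFP57 and KAP1 repressor complex, whose median was 0.02. In that list 2 (8.33%) were lower, and the shares over all genes were 12.9% higher and 6.33% lower. Trim28, which encodes KAP1, stood at 1776 and 2037 RPM. Smarcad1, a chromatin remodeller gene, and Suv39h1, a histone H3 lysine 9 methyltransferase gene, were the 2 lower members, at 508 and 224 RPM and at 50.2 and 16.5 RPM.

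Imprinted genes, which are expressed from 1 parental copy, differed in both directions between the wild-type lines. Over all genes 12.9% were higher and 6.33% lower. Of 26 paternally expressed genes measured, 7 (26.9%) were higher and 5 (19.2%) lower, with a median of −0.08. Of 32 maternally expressed genes, 2 (6.25%) were higher and 4 (12.5%) lower, with a median of −0.07. Both medians turned above 0, to 0.29 and 0.26, with the authors' scaling, and both stayed under that of all genes. Plagl1, a zinc finger growth regulator, stood at 6.19 and 40.6 RPM, 6.55-fold higher, but at 20.3 and 23.3 RPM in the knockout pair. Peg13, a noncoding RNA within Trappc9, stood at 2.13 and 16.2 RPM, and at 10.5 and 10.8 RPM in the knockout pair. For these genes the wild-type lines differed and the knockout lines were close.

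H19, a noncoding RNA, and Igf2, the growth factor gene beside it, were both higher in JB1 wild type although they are active on opposite parental copies. H19 stood at 18.7 and 78.0 RPM and Igf2 at 2.09 and 7.59 RPM, with the same order in the knockout pair (36.7 and 270 RPM, and 1.24 and 5.92 RPM). Kcnq1ot1, an antisense RNA that silences its domain, stood at 486 and 72.7 RPM, 6.69-fold lower, and at 586 and 74.9 RPM in the knockout pair. Cdkn1c, the growth inhibitor gene in that domain, was lower too, at 15.5 and 6.05 RPM. Impact, a translation regulator gene, stood at 638 and 227 RPM and Ube3a, a ubiquitin ligase gene, at 169 and 67.6 RPM, both with the same order in the knockout pair.

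The noncoding RNAs of the Dlk1-Dio3 cluster were lower in JB1 wild type. Rian stood at 392 and 84.2 RPM, 4.65-fold lower, Mirg at 31.7 and 5.54 RPM, and Meg3 at 136 and 82.8 RPM, the last not past 2-fold. In the knockout pair Rian stood at 520 and 918 RPM, Meg3 at 193 and 666 RPM and Mirg at 44.2 and 46.7 RPM. Mest, a hydrolase gene, stood at 137 and 63.9 RPM in the wild-type pair and at 148 and 134 RPM in the knockout pair. Peg3 (174 and 186 RPM), Snrpn (132 and 174 RPM) and Igf2r (417 and 349 RPM) were not called in the wild-type pair. Kcnq1ot1 and Peg13 lie on the strand opposite to, or within, other listed genes and share the uncertainty over strand.

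Signalling genes were counted by pathway, beside 12.9% higher, 6.33% lower and a median of 0.16 over all genes. In the LIF and STAT3 pathway, 7 of 18 genes were higher and 0 lower, with a median of 0.40. The higher ones included feedback inhibitors and targets of STAT3. Socs3, the feedback inhibitor of the receptor, stood at 19 and 77.7 RPM, and at 26.2 and 133 RPM in the knockout pair. Cish, another such inhibitor, stood at 1.04 and 8.98 RPM, and Bcl3, a nuclear IκB protein gene, at 4.55 and 21.9 RPM. Lifr, the receptor, was not called, at 267 and 145 RPM.

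In the FGF and ERK pathway, 5 of 25 genes were higher and 1 lower, with a median of 0.34. Fgf17, a ligand, stood at 2.31 and 18.2 RPM and Spry2, a feedback inhibitor, at 41.4 and 186 RPM. Etv5, a transcription factor downstream of ERK, was the lower one, at 507 and 187 RPM. Of 25 Wnt pathway genes, 9 were higher and 2 lower, with a median of 0.32. The receptor gene Fzd7 stood at 54.2 and 162 RPM, the secreted antagonist gene Sfrp1 at 90.3 and 266 RPM and Tcf7l1, the repressor of the naive network, at 14.5 and 77.3 RPM. Notum, a secreted Wnt inactivator, was lower, at 4.55 and 0.442 RPM.

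Of 26 BMP and Nodal genes, 2 (7.69%) were higher and 1 (3.85%) lower, with a median of 0.16 like that of all genes. The higher ones were Id3, a BMP target, at 4.07 and 25 RPM, and Smad6, an inhibitor, at 0.821 and 6.36 RPM. After centring by GC content the medians of the FGF, Wnt and BMP lists were 0.06, 0.17 and −0.02, while that of the LIF list was 0.28.

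Immediate early genes respond within minutes to serum and handling. Of 22 members, 8 (36.4%) were higher in JB1 wild type and 1 (4.55%) lower, against 12.9% and 6.33% of all genes. The list median was 0.37. Egr1 stood at 20.3 and 242 RPM, 12-fold higher, and at 27.6 and 44.3 RPM in the knockout pair. Fos stood at 22.6 and 67.2 RPM, and at 24.7 and 6.85 RPM in the knockout pair. Junb stood at 5.93 and 32.0 RPM and Ier2 at 29.7 and 139 RPM. For Egr1 and Fos the JB1 wild-type library was the high one of the 4.

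Trp53, the gene of p53, was 4.59-fold higher in JB1, at 152 and 695 RPM, and at 122 and 459 RPM in the knockout pair. The list of 23 p53 genes, which holds Trp53, had 3 higher and 4 lower members and a median of 0.05. The targets on the lower side were Plk2, a kinase gene (261 and 57.1 RPM), Eda2r, a receptor gene (330 and 119 RPM), Trp53inp1 (1070 and 419 RPM) and Ccng1, encoding cyclin G1 (661 and 290 RPM). Pmaip1, encoding the death factor NOXA, was higher, at 17.7 and 85.0 RPM. Mdm2, the inhibitor of p53, was not called, at 510 and 270 RPM. All 4 lower targets were also lower in JB1 in the knockout pair.

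Of 25 ATF4 and amino acid response genes, 5 (20%) were higher and 1 (4%) lower, against 12.9% and 6.33% of all genes. The list median was 0.32. Ddit4, an inhibitor of mTOR signalling, stood at 44.3 and 277 RPM and Atf5 at 49.9 and 185 RPM, while Slc7a11, the cystine transporter, stood at 97.6 and 31.3 RPM. In the knockout pair Atf5 stood at 101 and 59.1 RPM. Of 35 glycolysis and hypoxia genes, 5 (14.3%) were higher and 5 (14.3%) lower, with a median of −0.02. Pdk1, a pyruvate dehydrogenase kinase gene, stood at 138 and 41.8 RPM and Vegfa, a hypoxia target, at 46.3 and 125 RPM.

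Of 33 extracellular matrix and adhesion genes, 9 (27.3%) were higher and 3 (9.09%) lower, against 12.9% and 6.33% of all genes. The list median of 0.32 became −0.01 after centring by GC content. Of 16 interferon response genes, 4 (25%) were higher and 1 (6.25%) lower, with a median of 0.52. Stat2, the signal transducer of type I interferon, stood at 6.08 and 30.4 RPM, and Ifitm1, a membrane protein gene, was the lower one at 101 and 34 RPM. Of 24 genes of MHC class I and antigen presentation, 2 (8.33%) were higher and 1 (4.17%) lower. The lower one was H2-Q6, a nonclassical class I gene in a family of near copies, at 66.9 and 10.3 RPM. Cholesterol synthesis (3 of 23 higher, 0 lower), heat shock chaperones (1 of 18 in each direction) and glutathione transferases (2 of 19 in each direction) had medians of 0.15, 0.07 and 0.03.

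Among 83 ribosomal protein genes, 7 (8.43%) were higher and 0 lower, against 12.9% and 6.33% of all genes. The list median was 0.07. Rps16 stood apart, at 67.9 and 737 RPM, 10.9-fold higher in JB1 (95% interval 10.3 to 11.4), and at 72.5 and 670 RPM in the knockout pair. Ribosomal protein genes have many processed copies in the genome, so the split of reads among them is uncertain. Of 346 zinc finger genes named Zfp, 47 (13.6% of them) were higher and 21 (6.07%) lower, close to the shares of all genes.

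Both lines expressed Y-linked genes. Ddx3y stood at 274 and 148 RPM, Uty at 111 and 64.8 RPM and Eif2s3y at 155 and 93.9 RPM, each lower in JB1 by less than 2-fold. In the knockout pair Ddx3y stood at 303 and 117 RPM and Uty at 112 and 53.5 RPM. Kdm5d, a Y-linked histone demethylase gene, stood at 0.0746 RPM (2 reads) in the E14 library and 30.2 RPM in the JB1 library, a ratio of 405 with a counting interval of 112 to 3347, and at 0.395 and 33.4 RPM in the knockout pair. Zfy1, a zinc finger gene, stood at 1.04 and 11.5 RPM. On the X chromosome, Xist was low in both lines (3.66 and 4.89 RPM). Rlim, which encodes an activator of Xist, stood at 775 and 135 RPM, 5.76-fold lower, and Tsix, the antisense RNA of Xist, at 32.8 and 5.48 RPM. Tsix overlaps Xist on the other strand.

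Differences were not spread evenly over the chromosomes. For the 10516 genes that averaged 5 RPM or more over both libraries, the median difference was 0.14. Chromosome 1 had the highest median, 0.50 over 590 genes, with 78.1% of them above 0, and 0.34 in the knockout pair. All 13 of its windows of 10 Mb that held at least 20 genes lay above the median of all genes, between 0.18 and 0.73. Below 140 Mb the median was 0.57 in the wild-type pair and 0.52 in the knockout pair. Beyond 140 Mb it was 0.39 and −0.00. The limit of 140 Mb was set with earlier results of these libraries known.

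Chromosome 6 had the lowest median of the numbered chromosomes, −0.23 over 481 genes, but 0.13 in the knockout pair. All 11 of its windows lay below the median of all genes. On chromosome 14, genes between 41 and 77 Mb had a median of 0.40 in the wild-type pair and 1.10 in the knockout pair. Outside that stretch the medians were 0.02 and −0.02. The limits of the stretch were also set with earlier results of these libraries known, so the contrast follows in part from that choice. The number of chromosome copies in these cultures was not measured here. Nanog and Dppa3, described above, lie on chromosome 6 and were higher in JB1, against the direction of that chromosome's median. Prdm14 and Lamc1 lie on chromosome 1.

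**Figure D5:**
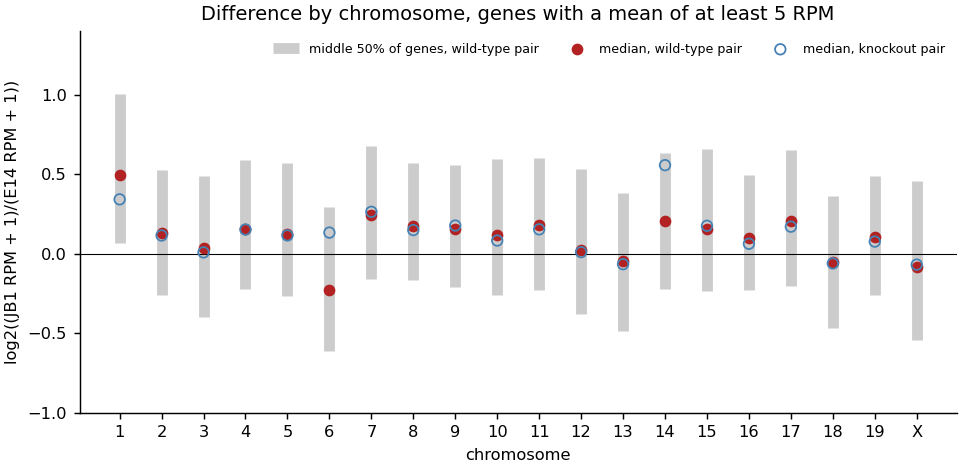
Median difference between JB1 and E14 by chromosome, log2((JB1 RPM + 1)/(E14 RPM + 1)), for genes that averaged 5 RPM or more, in the wild-type pair (red, with the middle 50% of genes in grey) and the knockout pair (open blue circles). Chromosome 1 lies highest in the wild-type pair (0.50) and chromosome 6 lowest (−0.23), while chromosome 14 lies highest in the knockout pair (0.56).

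The difference also varied with base composition. Across the 13587 genes with a transcript in the reference, Spearman's rho between transcript GC content and the difference was 0.25 in the wild-type pair and 0.27 in the knockout pair, as a description across genes that share the same libraries. From the lowest to the highest decile of GC content the median difference went from −0.15 to 0.56, the share called higher from 6.4% to 25.7% and the share called lower from 10.9% to 3.90%. Genes called higher had a median GC content of 52.7% and genes called lower 47.5%, against 49.7% for all. The histone genes had a median GC content of 57.5% and the satellite-like transcripts 35.8%. The part of GC content in the single differences was not tested beyond the centring given above.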

How the data were processed

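Poly(A) RNA of 4 mouse stem cell libraries was measured with a stranded Illumina kit, per the labels' protocols. For each line the authors deposited a table of log2 RPM for 26130 genes. The submitters' processing notes name TopHat2 2.0.8b, CASAVA 1.8.2 and cutadapt, and the build mm9. Neither the annotation nor the counter and its strand setting is given in the sources used here. In every library 100% of values above the lowest gave whole reads as 0.9 × 2 to the power of (value − lowest), within a relative tolerance of 0.0001, so genes at the lowest value were set to 0. The 13 mitochondrial genes had 0 reads. Each library was rescaled to 1000000 reads in listed genes, and rows were matched by symbol and start, since 59 symbols occur more than once.

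Groups came from the sample titles. The members and gene lists were chosen with earlier results of these data known, and the 3 lists named in the report as chosen after seeing the data were added later. Genes were named by a rule: the 15 highest and 15 lowest, up to 10 without reads in 1 library in each direction, and in each list the 5 with the largest difference, the 3 with the highest level and Pou5f1, Sox2, Nanog, Zfp57, Xist and Hprt. Other list members printed in the report were chosen after their values were seen. Coordinates are those of the tables. The reference is GRCm38, where the last chromosome 1 gene ends at 195291439 and not at 197002909, and served for transcripts, GC content and names. Promoter entries matched 78.5% of the genes measured, under the minimum of 80%, so the check of promoter composition was void. The scripts were tested on simulated data (Python 3.11.15, pandas 2.3.3, numpy 2.4.6, scipy 1.17.1).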

Additional observations from a re-analysis of the deposited data

Results flagged for a closer look

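In 3 gene lists of at least 10 measured genes the median difference between JB1 and E14 had opposite signs in the 2 genotypes and a size of at least 0.3 in both. Other lists with opposite signs had a smaller median in 1 of the pairs. For germline genes silenced by DNA methylation it was 0.65 in the wild-type pair and −0.82 in the knockout pair. For immediate early genes it was 0.37 and −0.71, and for ATF4 and amino acid response genes 0.32 and −0.48. These differences between genotypes were not tested, since each line and genotype was 1 library.

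There were 6 genes at least 2-fold higher in JB1 wild type and at least 2-fold lower in the JB1 knockout, each against E14 of the same genotype. They were Ptgs2, the inducible prostaglandin synthase gene (7.50 and 29.9 RPM in the wild-type pair, 21.9 and 3.72 RPM in the knockout pair), Dcdc2a (0.895 and 3.96 RPM, 37.2 and 5.42 RPM), Fos, Egr2 (0.784 and 4.83 RPM, 2.13 and 0.539 RPM), Nxf2 (2.05 and 5.73 RPM, 4.53 and 1.38 RPM) and Pdgfc (42.7 and 100 RPM, 67.8 and 31.2 RPM). The opposite order was found for 1 gene, Ceacam1, at 2.57 and 0.442 RPM in the wild-type pair and 1.71 and 4.47 RPM in the knockout pair. The difference between genotypes was not tested for any of these genes.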

How the results depend on the processing

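With the authors' scaling to the library total, 2735 genes were at least 2-fold higher and 414 lower, and the median of all genes was 0.49. The median was 0.044 with a median of ratios scaling, 0.073 with every gene that had a read, and 0 after centring within deciles of GC content, an alternative chosen after seeing the data that gave 1188 higher and 1087 lower genes. A pseudocount of 5 RPM gave 838 higher and 471 lower genes, a threshold of 1.5-fold 3742 and 2011, and a threshold of 4-fold 274 and 182. The other settings moved both counts by less than 1.5 times. Of 39 lists, 27 stayed on the same side of the median of all genes under all 9 settings. Of 380 named values past 2-fold, 330 stayed so with the authors' scaling, 258 with a pseudocount of 5 RPM, and 0 changed sign past 2-fold in any setting. No paired analysis was possible because the wild-type groups share fewer than 2 replicate numbers. A fit of line and genotype over all 4 libraries was not made, since the tables of the lines were scaled separately. With 1 library per group no replicate could be left out. Depth limits genes near 1 RPM, which rest on 26.8 reads in E14.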
